A study of Mus musculus with 5 samples.

Results

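Genes that handle haem and iron were followed across the cells of mouse foreign body granulomas, the tissue that forms around an implanted material. The 8 genes were taken by name from a table of 21617 genes: Hmox1, Slc40a1, Cp, Trf, Tfrc, Slc11a1, Fth1 and Ftl1. All 8 were in the table, and none was chosen by a threshold on its level. The cells came from 5 droplet libraries. Of granuloma tissue there was 1 library each from silk at 4 weeks, silk at 2 weeks, sponge at 4 weeks and sponge at 2 weeks. These are called the 4 granulomas below. The last was 1 control library of macrophages elicited with thioglycollate, an irritant broth that draws macrophages to the site of injection. The sources used here name no strain, age, sex or implantation site, nor how many animals or implants stand behind a library. Each group is 1 library, so the spread between animals could not be measured, no test was made, and every interval below covers counting error only. Tissue and procedure also differ between granulomas and control: how a granuloma was taken apart and the origin of the control cells cannot be told apart from the implant.

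Macrophages take in the haem of dying red cells and other cells. The enzyme haem oxygenase opens the haem ring and frees its iron, which is then either stored in the ferritin shell or leaves the cell through ferroportin, the only known mammalian exporter of iron. Iron outside cells is oxidised by ceruloplasmin, carried by transferrin and taken up through the transferrin receptor. Inside cells, iron regulatory proteins bind hairpins in the messenger RNAs when iron is scarce: in the 5′ UTR they hold back translation, and in the 3′ UTR of the transferrin receptor they keep the message from decay.

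Those hairpins are shown first because 4 of the 8 genes carry them. Messenger RNA is what was counted here. For the 3 genes with a hairpin in the 5′ UTR, its amount and the amount of protein can part. A search of annotated UTRs (GENCODE M21 on GRCm38, the assembly also called mm10) looked on the coding strand for a C, 5 bases, the loop CAGTGN and 5 further bases that pair with the first 5, G with T allowed. A match in the 5′ UTR was present in 3 of the 8 genes and in 28 of the 20544 genes searched (0.136%). One of the 8 genes had matches in the 3′ UTR, where 127 of 20920 genes did (0.607%). Capitals mark the bulged C and the first 5 bases of the loop; a match in letters is not a measured binding site. The intervals are chr19:9982732-9982760 on the plus strand for Fth1, chr7:45459779-45459807 on the minus strand for Ftl1 and chr1:45925465-45925493 on the minus strand for Slc40a1. Those of Tfrc lie on the plus strand in the 3′ UTR at chr16:32631219-32631247, chr16:32631598-32631626, chr16:32631663-32631691 and chr16:32631710-32631738, and each is named by its first base.
Fth1 5′ UTR: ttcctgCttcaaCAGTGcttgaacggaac
Ftl1 5′ UTR: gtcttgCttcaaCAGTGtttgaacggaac
Slc40a1 5′ UTR: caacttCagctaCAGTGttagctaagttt
Tfrc 3′ UTR at 32631219: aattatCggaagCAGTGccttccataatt
Tfrc 3′ UTR at 32631598: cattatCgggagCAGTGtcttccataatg
Tfrc 3′ UTR at 32631663: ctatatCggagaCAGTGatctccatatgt
Tfrc 3′ UTR at 32631710: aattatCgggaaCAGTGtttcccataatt

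The libraries held 1873 cells (silk at 4 weeks), 10231 (silk at 2 weeks), 7701 (sponge at 4 weeks), 12347 (sponge at 2 weeks) and 9039 (control). Their UMIs, the counted molecules, totalled between 11207419 in silk at 4 weeks and 96066597 in sponge at 2 weeks, and the median cell held between 3818 and 7109 UMIs. Cell classes and subclusters are those the authors deposited, and a class was used in a library where it had at least 50 cells. Macrophages and monocytes numbered 1045, 7350, 4605, 7113 and 7783 in silk at 4 weeks, silk at 2 weeks, sponge at 4 weeks, sponge at 2 weeks and the control. All 8 macrophage markers were detected in them in every library, at a summed level of 15977 to 20780 CPM in granulomas and 24827 CPM in the control. Large peritoneal macrophage markers summed to 16.4 to 41.7 CPM in granulomas and 558 CPM in the control. A sum of 18 dissociation stress genes, a list drawn up after the data were seen, was 10615 to 13787 CPM in granuloma macrophages and 5576 CPM in control macrophages, and its part in the differences from the control was not tested. Over all pairs of libraries 153 cell barcodes occurred in 2 libraries.

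Levels are given as CPM: the UMIs of a gene summed over the cells of a class in a library, scaled to a total of 1000000 UMIs for those cells. A difference is a log2 ratio of 2 such levels with 0.5 counts added to each sum, followed by its 95% interval. A gene is called higher or lower at a change of at least 2-fold after 10 CPM is added to both levels, provided the larger of the 2 libraries has 100 or more UMIs of it and a level of 50 CPM or more. In macrophages 6 of the 8 genes met these limits in all 4 comparisons with the control, which share that library. One was higher in all 4, Hmox1, where 6.30% of all genes meeting the limits were, and 1 was lower in all 4, Trf, where 2.79% were. In the single comparisons, the share of all genes called higher was 9.97% in silk at 4 weeks, 10.9% in silk at 2 weeks, 11.0% in sponge at 4 weeks and 11.9% in sponge at 2 weeks, and the share called lower was 5.15%, 5.85%, 5.68% and 5.67% in the same order. The median log2 ratio of the 6 genes to the control was −0.18 in silk at 4 weeks, beside −0.03 over 3321 genes, and −0.07 in silk at 2 weeks, beside 0.05 over 3384 genes. In sponge it was −0.30 at 4 weeks, beside 0.02 over 3381 genes, and 0.07 at 2 weeks, beside −0.01 over 3367 genes.

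Hmox1 encodes haem oxygenase 1, the inducible enzyme that breaks haem down to iron, carbon monoxide and biliverdin (chr8:75093621-75100589, plus strand). Its level in macrophages was 406.6 CPM in silk at 4 weeks, 1340 CPM in silk at 2 weeks, 715.0 CPM in sponge at 4 weeks and 1489 CPM in sponge at 2 weeks, against 192.5 CPM in the control. All 4 granulomas stood above the control, and both 2-week granulomas stood above both 4-week granulomas. The log2 ratio to the control was 1.08 (1.02 to 1.14) for silk at 4 weeks, 2.80 (2.77 to 2.83) for silk at 2 weeks, 1.89 (1.86 to 1.93) for sponge at 4 weeks and 2.95 (2.92 to 2.98) for sponge at 2 weeks. The first of these lies close to the 2-fold limit and dropped below it under 4 of the alternative settings, listed in the closing section. When each cell was thinned to 1000 UMIs, a Hmox1 UMI remained in 28.1% of macrophages in silk at 4 weeks, 55.9% in silk at 2 weeks, 40.2% in sponge at 4 weeks and 56.7% in sponge at 2 weeks, against 17.9% in the control. Unthinned, where the control cells are the deepest, the shares were 52.2%, 81.5%, 66.6% and 81.9% in these granulomas and 67.6% in the control, so the order of the shares depended on depth.

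Hmox1 was also the 1 gene of 5 that was called lower at 4 than at 2 weeks in macrophages of both materials, where 0.506% of all genes were; none of the 5 was called higher, where 0.0675% of all genes were. The log2 ratio of 4 to 2 weeks was −1.72 (−1.78 to −1.66) in silk and −1.06 (−1.08 to −1.03) in sponge. The sponge value also lies close to the limit and dropped below it under 5 alternative settings. Silk against sponge gave −0.81 (−0.88 to −0.75) at 4 weeks and −0.15 at 2 weeks, and no gene of the 8 was called in the same direction at both times (0 of 5 either way, where 0.0684% of all genes were called higher and 0.308% lower).

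Red cell transcripts were also more abundant in macrophages of the 2-week granulomas. A sum of 6 erythroid marker genes in macrophages was 3.00 CPM in silk at 4 weeks, 121.5 CPM in silk at 2 weeks, 0.768 CPM in sponge at 4 weeks and 106.2 CPM in sponge at 2 weeks, against 0.0807 CPM in the control. Few cells carried most of it: 1 macrophage held 1416 of the 5187 UMIs in silk at 2 weeks, and 1 held 1066 of the 4480 in sponge at 2 weeks. By cells with such a UMI the order of times was less clear, at 1.44% of macrophages in silk at 4 weeks, 2.08% in silk at 2 weeks, 0.304% in sponge at 4 weeks and 1.34% in sponge at 2 weeks, against 0.0771% in the control. In endothelial cells the sum was 70.6, 37.4, 4.67 and 13.8 CPM in the 4 granulomas, highest in silk at 4 weeks. Without every cell that had an erythroid UMI, Hmox1 in macrophages was 405.2 CPM in silk at 4 weeks, 1335 CPM in silk at 2 weeks, 719.4 CPM in sponge at 4 weeks and 1487 CPM in sponge at 2 weeks, against 192.6 CPM in the control. With so few such cells, leaving them out could hardly move these levels. The part of haem from red cells in Hmox1 was not tested.

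**Figure D1:**
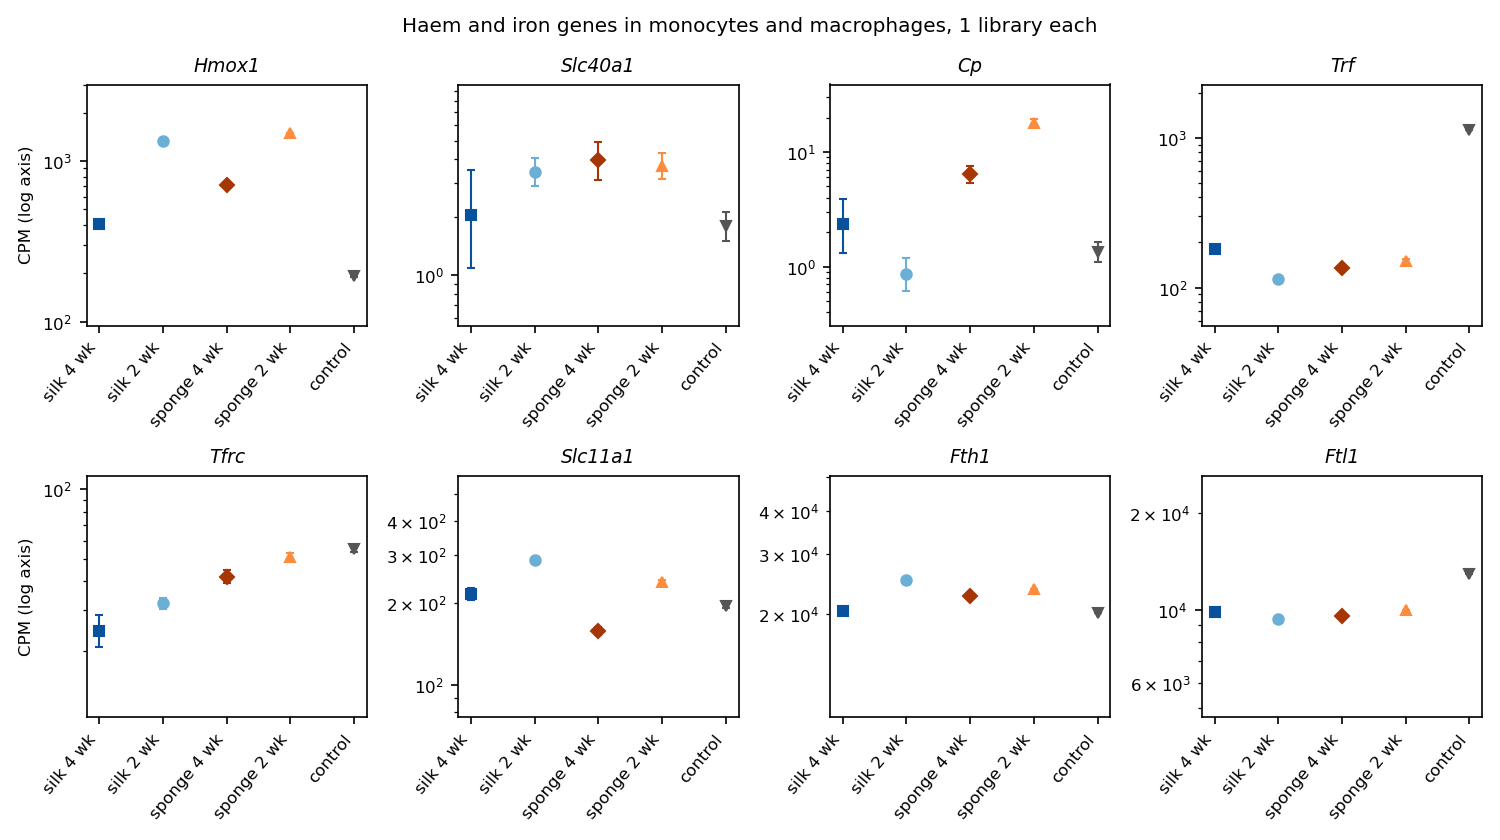
Level of each of the 8 genes in macrophages and monocytes of each library, in CPM on a log axis, with 95% intervals for counting error; granulomas stand left of the control. Hmox1 lies between 406.6 and 1489 CPM in the 4 granulomas against 192.5 CPM in the control, and Trf between 114.8 and 180.1 CPM against 1126 CPM.

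Within the authors' myeloid subclusters, which are numbered and not named here, the 4-week values of Hmox1 were again the lower ones. In C7, which made up 47.5% of macrophages in silk at 4 weeks and 60.7% at 2 weeks, Hmox1 was at 367.7 CPM in silk at 4 weeks and 1326 CPM in silk at 2 weeks, and at 707.3 CPM in sponge at 4 weeks and 1295 CPM in sponge at 2 weeks. In C6 the levels were 344.2 CPM in silk at 4 weeks and 1426 CPM in silk at 2 weeks, and 825.6 CPM in sponge at 4 weeks and 1295 CPM in sponge at 2 weeks. The interval of the ratio of 4 to 2 weeks lay below 0 in 3 of 3 subclusters with enough cells in silk (C3, C6 and C7) and in 6 of 6 in sponge (C3 to C8). In silk the ratio was −2.05 (−2.25 to −1.86) in C6 and −1.85 (−1.92 to −1.78) in C7, both called lower, as were 3.20% of all genes in C6 and 0.813% in C7. It was −0.66 (−0.80 to −0.52) in C3, which was not called. In sponge the ratio was −2.12 (−2.39 to −1.88) in C4, a subcluster that made up 1.54% of macrophages at 4 weeks and 35.7% at 2 weeks, and between −0.30 in C8 and −0.87 in C7 in the other 5. For silk against sponge the subclusters did not all follow the class. At 2 weeks, where the class gave −0.15, the interval lay above 0 in 5 of 6 subclusters and below 0 in 1, C4. At 4 weeks it lay below 0 in C6 and C7 and above 0 in C3. The control subclusters C1, C2 and C10 held 200.9, 165.7 and 163.4 CPM of Hmox1, below every granuloma subcluster measured, of which C6 in silk at 4 weeks was the lowest.

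Outside macrophages the same order of times was seen in the stroma, and was not particular to it. In neutrophils, whose levels are given below, both 4-week values also lay below both 2-week values. The silk value at 4 weeks there rests on 73 UMIs, and its interval (689.1 to 1105 CPM) overlaps that of silk at 2 weeks (1027 to 1137 CPM). In neutrophil subcluster N1 the interval of the silk ratio over time spanned 0. In NK and T cells both 4-week values again lay below both 2-week values. Levels there ran from 25.2 to 209.6 CPM over the 4 granulomas, with 10 UMIs in silk at 4 weeks. Hmox1 in endothelial cells was at 54.3 CPM in silk at 4 weeks and 198.2 CPM in silk at 2 weeks, and at 99.7 CPM in sponge at 4 weeks and 271.9 CPM in sponge at 2 weeks. Fibroblasts held 49.1 CPM in silk at 4 weeks and 123.1 CPM in silk at 2 weeks, and 98.8 CPM in sponge at 4 weeks and 200 CPM in sponge at 2 weeks. Both 4-week values lay below both 2-week values in each class. In endothelial cells the log2 ratio of 4 to 2 weeks was −1.86 (−2.27 to −1.49) in silk and −1.45 (−1.61 to −1.29) in sponge, and Hmox1 was the 1 gene of 4 called lower in both materials, where 0.682% of all genes were. Split by a UMI of the lymphatic genes Prox1, Lyve1 or Mmrn1, the ratio was −2.15 (−2.91 to −1.52) in silk and −0.69 (−1.11 to −0.27) in sponge among cells with one. Among cells without one it was −1.69 (−2.21 to −1.25) in silk and −1.22 (−1.42 to −1.04) in sponge. Free RNA from macrophages can give UMIs in other cells. Summed macrophage markers stood at 0.470% of the macrophage level in endothelial cells of silk at 4 weeks, 7.81% in silk at 2 weeks, 5.57% in sponge at 4 weeks and 6.26% in sponge at 2 weeks, while Hmox1 stood at 13.4%, 14.8%, 13.9% and 18.3% of it in the same libraries. In fibroblasts the markers stood at 0.882%, 4.94%, 3.22% and 3.92% of the macrophage level and Hmox1 at 12.1%, 9.19%, 13.8% and 13.4%, in the same order. In NK and T cells the markers stood at 6.29%, 9.56%, 6.50% and 8.47%, and Hmox1 at 6.19%, 15.6%, 11.9% and 11.75%. The part of free RNA in these levels was not tested. In fibroblasts the highest Hmox1 levels were those of subcluster F4, at 412.4 CPM in silk at 2 weeks, 314.1 CPM in sponge at 4 weeks and 525.9 CPM in sponge at 2 weeks. F4 also held more of the genes of macrophages: their summed markers stood at 5473, 5735 and 4417 CPM in these libraries, against 67.9 to 472.1 CPM in F1, F2 and F3 wherever measured, Slc11a1 at 57.1 to 78.4 CPM against 0 to 14.95 CPM, and Fth1 at 8637 to 10073 CPM against 2416 to 5336 CPM. Their part in the F4 level of Hmox1 was not tested. Fibroblasts of subcluster F1 were an exception to the order of times in silk, at 91.3 CPM at 4 weeks and 80.6 CPM at 2 weeks (0.18, −0.24 to 0.60). The makeup of the class moved as well: F1 made up 59.7% of fibroblasts in silk at 4 weeks, 13.2% in silk at 2 weeks, 55.5% in sponge at 4 weeks and 63.8% in sponge at 2 weeks, and F2 27.5%, 57.3%, 25.02% and 14.8% of them. With equal weight of F1 and F2, the fibroblast subclusters with enough cells, the ratio of Hmox1 in silk, with the 10 CPM added, was −0.48, where it was −1.17 from the summed counts.

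**Figure D2:**
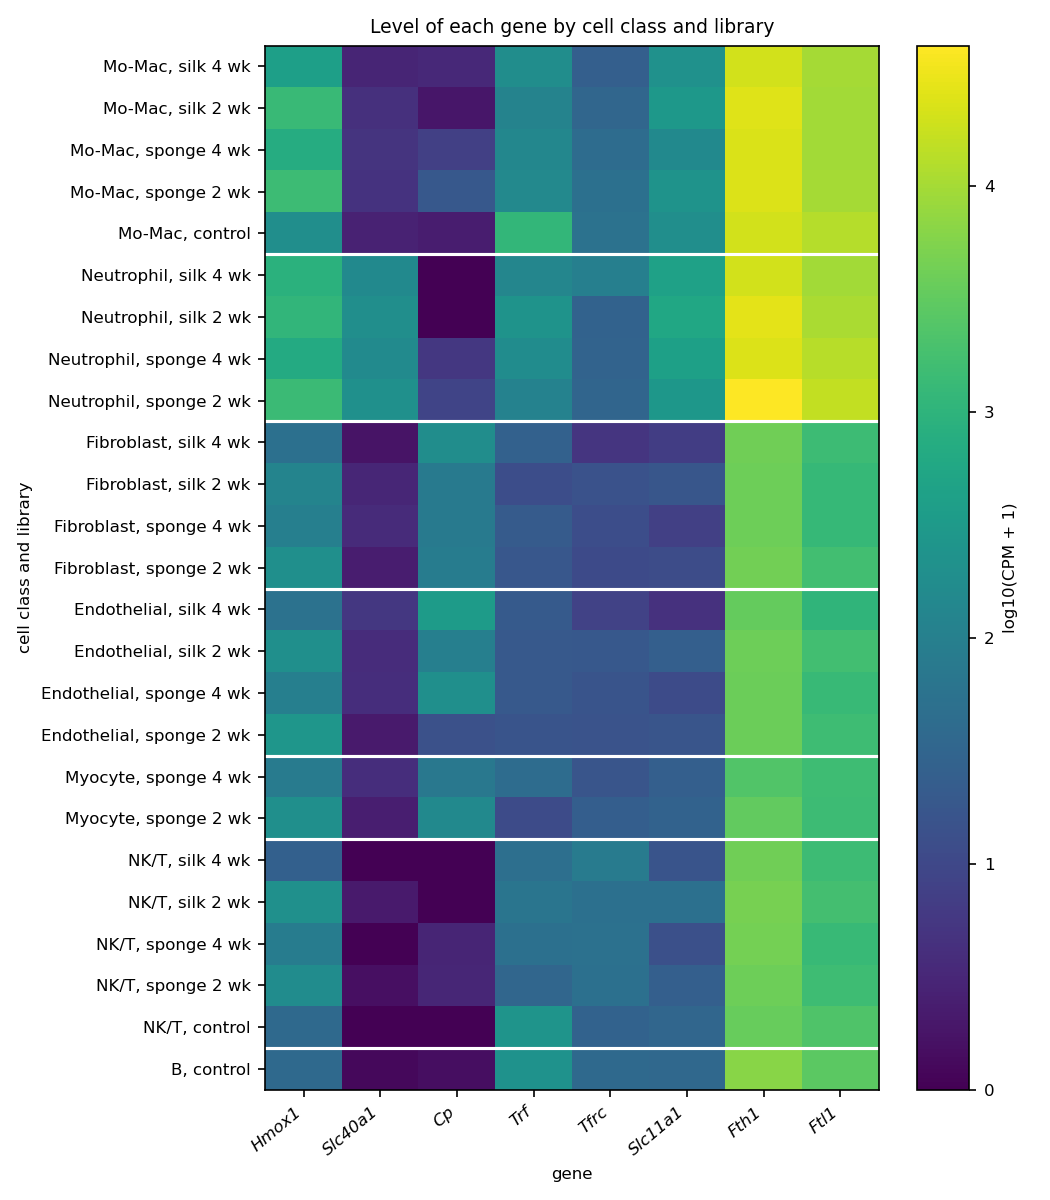
Heat map of the level of each of the 8 genes (columns) by cell class and library (rows), as log10(CPM + 1) in colour, for classes with at least 50 cells in a library; within a class the granulomas stand above the control. Slc40a1 lies at 156.6 to 204.1 CPM in neutrophils and at 3.94 CPM or less in macrophages, and Cp at 13.1 to 348.4 CPM in endothelial cells.

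Slc40a1 encodes ferroportin (chr1:45908068-45926523, minus strand). In macrophages it was at 2.05 CPM in silk at 4 weeks, 3.44 CPM in silk at 2 weeks, 3.94 CPM in sponge at 4 weeks and 3.70 CPM in sponge at 2 weeks, against 1.79 CPM in the control. These levels rest on 13 to 156 UMIs per library, all under the limit of 50 CPM, so none was called. In neutrophils it was at 156.6 CPM in silk at 4 weeks, 194.8 CPM in silk at 2 weeks, 158.9 CPM in sponge at 4 weeks and 204.1 CPM in sponge at 2 weeks. Every neutrophil value lay above every macrophage value. The control library had 12 neutrophils, too few to use, so the comparison with a non-granuloma neutrophil was not analysed here.

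Hmox1 in neutrophils was at 879.2 CPM in silk at 4 weeks, 1081 CPM in silk at 2 weeks, 675.4 CPM in sponge at 4 weeks and 1406 CPM in sponge at 2 weeks, within the range of granuloma macrophages. Of the 4 Slc40a1 values of neutrophils, both 4-week ones lay below both 2-week ones. The interval of the log2 ratio spanned 0 in all 4 comparisons, however, and was −0.07 (−0.29 to 0.15) for silk against sponge at 2 weeks and −0.35 (−0.75 to 0.01) for 4 against 2 weeks in sponge. Neutrophils made up 3.68% of the cells of silk at 4 weeks, 7.96% of silk at 2 weeks, 4.29% of sponge at 4 weeks and 8.46% of sponge at 2 weeks. They held 37.1%, 58.0%, 30.2% and 68.6% of all Slc40a1 UMIs of these libraries, in the same order. No Slc40a1 UMI was found in the NK and T cells of silk at 4 weeks, of sponge at 4 weeks or of the control (0 of 153, 0 of 307 and 0 of 367 cells, which, with 3 counts as the limit, allows shares of cells with a UMI of up to 1.96%, 0.977% and 0.817%), and 1 cell with a UMI was found in each of the 2-week granulomas. The median NK or T cell held 2369 to 3110 UMIs, more than the 1083 to 1893 UMIs of the median neutrophil, 13.9% to 26.1% of which had a Slc40a1 UMI.

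Within neutrophils the authors' subcluster N2 held the highest Slc40a1 levels. They were 576.2 CPM in silk at 2 weeks, 280.7 CPM in sponge at 4 weeks and 294.2 CPM in sponge at 2 weeks, from 137, 36 and 317 UMIs. N1 held 89.9 CPM in silk at 4 weeks, 163.1 CPM in silk at 2 weeks, 118.8 CPM in sponge at 4 weeks and 162.1 CPM in sponge at 2 weeks, so N2 stood above N1 in each library that had both. The close values of the whole class at 2 weeks covered differences within it: silk against sponge gave 0.97 (0.67 to 1.26) in N2, while N3 held 18.8 CPM in silk and 98.2 CPM in sponge, and N2 made up 19.3% of neutrophils in silk and 55.0% in sponge. After thinning to 1000 UMIs, a Slc40a1 UMI remained in 32.5%, 25% and 20.2% of N2 cells of silk at 2 weeks, sponge at 4 weeks and sponge at 2 weeks, and in 10.9%, 5.30% and 12.3% of N1 cells of these libraries. N2 was also the subcluster with the most Hmox1, at 3613 CPM in silk at 2 weeks, 1536 CPM in sponge at 4 weeks and 2013 CPM in sponge at 2 weeks. N1 held 209.8 CPM of Hmox1 in silk at 4 weeks, 331.2 CPM in silk at 2 weeks, 267.3 CPM in sponge at 4 weeks and 578.3 CPM in sponge at 2 weeks. These clusters were made from the same cells, so the difference between N2 and N1 is a description.

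The 2 transcripts also met in single cells. Among neutrophils thinned to 1000 UMIs, a Hmox1 UMI was present in 51.2% of those with a Slc40a1 UMI and 27.4% of those without in silk at 2 weeks. The shares were 50% and 24.6% in sponge at 4 weeks and 68.7% and 50.3% in sponge at 2 weeks, and the exact intervals of the pair overlap in sponge at 4 weeks. Within N2 alone they were 80.0% and 69.9% in silk at 2 weeks, 66.7% and 51.1% in sponge at 4 weeks, and 74.3% and 62.6% in sponge at 2 weeks, with exact intervals that overlap. The summed level of the macrophage markers was 1598, 1396 and 1776 CPM in N2 of silk at 2 weeks, sponge at 4 weeks and sponge at 2 weeks, and 1341 to 2714 CPM in N1 over the 4 granulomas, so N2 stood above N1 in silk at 2 weeks and below it in sponge at both times. In N3 they reached 13444 CPM in silk at 2 weeks and 12896 CPM in sponge at 2 weeks. Of the N2 cells of silk at 2 weeks, 3 held 929 erythroid UMIs, and without them Slc40a1 in that subcluster was 558.9 CPM.

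**Figure D3:**
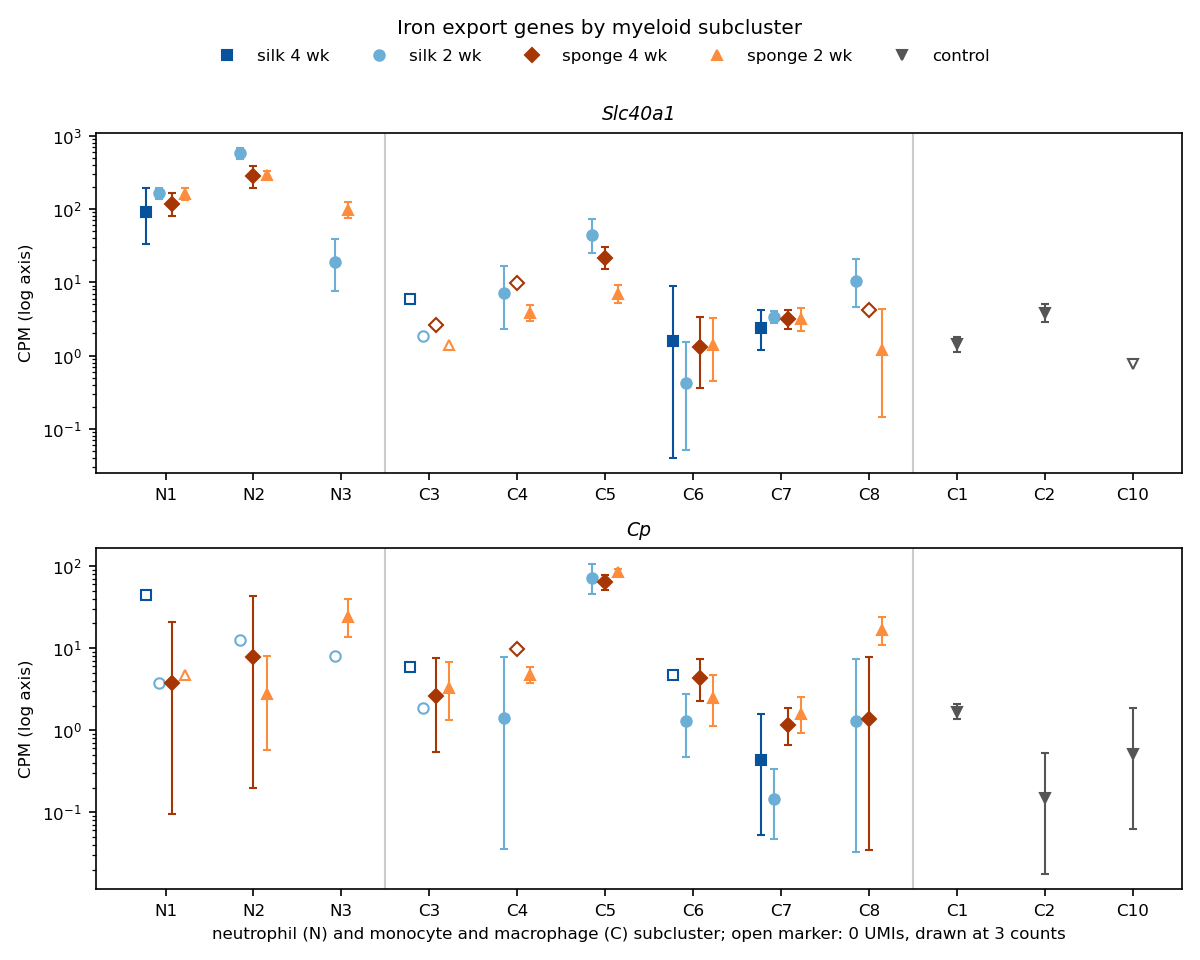
Levels of the iron export genes Slc40a1 and Cp in the neutrophil subclusters (N) and the monocyte and macrophage subclusters (C) of each library, in CPM on a log axis, with 95% intervals for counting error; an open marker stands for 0 UMIs and is drawn at the level of 3 counts. In Slc40a1 the N2 values of 280.7 to 576.2 CPM stand above all others, and among myeloid subclusters C5 in silk at 2 weeks is highest at 44.8 CPM.

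Among myeloid subclusters, C5 held the most Slc40a1, at 44.8 CPM in silk at 2 weeks, 21.6 CPM in sponge at 4 weeks and 7.01 CPM in sponge at 2 weeks, from 15, 34 and 51 UMIs. All other myeloid subclusters were at 10.5 CPM or below. C5 also held the highest Cp levels of the myeloid subclusters. Its Cp level was 71.7 CPM in silk at 2 weeks, 63.5 CPM in sponge at 4 weeks and 85.6 CPM in sponge at 2 weeks, whereas no other myeloid subcluster passed 16.6 CPM. Tfrc in C5 was at 131.5, 127.7 and 111.9 CPM, and Trf at 702.2, 343.1 and 335.0 CPM, in the same 3 libraries. C5 had too few cells to use in silk at 4 weeks, and made up 1.42% of macrophages in silk at 2 weeks, 9.51% in sponge at 4 weeks and 19.1% in sponge at 2 weeks.

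Cp encodes ceruloplasmin, the copper-bearing oxidase of iron found in plasma and, in a membrane-bound form, on several cell types (chr3:19957054-20009145, plus strand). It was mostly a transcript of the stroma. Fibroblasts held 51.9% of the Cp UMIs of silk at 4 weeks, 61.9% of silk at 2 weeks, 63.7% of sponge at 4 weeks and 67.6% of sponge at 2 weeks, and endothelial cells 41.3%, 26.5%, 27.8% and 2.26% of them. In endothelial cells the level was 348.4 CPM in silk at 4 weeks and 99.2 CPM in silk at 2 weeks, and 202.9 CPM in sponge at 4 weeks and 13.1 CPM in sponge at 2 weeks. The 4-week granuloma was the higher one in both materials, and silk the higher one at both times. The log2 ratio of 4 to 2 weeks was 1.81 (1.61 to 2.02) in silk and 3.94 (3.65 to 4.26) in sponge, and Cp was the 1 gene of 4 called higher in both, where 0.682% of all genes were.

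Endothelial cells were split, after the data were seen, into those with and those without a UMI of Prox1, Lyve1 or Mmrn1, genes known from lymphatic endothelium. Cells with such a UMI held 359 of the 385 endothelial Cp UMIs in silk at 4 weeks, 307 of 406 in silk at 2 weeks and 699 of 739 in sponge at 4 weeks, but 41 of 104 in sponge at 2 weeks. Such cells made up 37.6% of endothelial cells in silk at 4 weeks, 28.8% in silk at 2 weeks, 36.7% in sponge at 4 weeks and 5.43% in sponge at 2 weeks, so the makeup of the class moved with its Cp level. In these cells Cp was at 892.3 CPM in silk at 4 weeks, 245.0 CPM in silk at 2 weeks, 456.1 CPM in sponge at 4 weeks and 45.0 CPM in sponge at 2 weeks. In the remaining endothelial cells it was at 37.0, 34.9, 19.0 and 8.99 CPM in the same libraries. Within the cells with such a UMI, the log2 ratio of 4 to 2 weeks was 1.87 (1.64 to 2.09) in silk and 3.32 (2.89 to 3.83) in sponge. Among the rest it was 0.11 (−0.60 to 0.72) in silk and 1.08 (0.47 to 1.67) in sponge. The sponge ratio of the cells with such a UMI rests on 44 cells at 2 weeks whose median was 17637 UMIs, against medians of 3115 to 5151 UMIs in such cells of the other 3 granulomas and 5850 UMIs in the remaining endothelial cells of sponge at 2 weeks, and the part of depth in it was not tested. Thinned to 1000 UMIs, 56.0% of the cells with such a UMI had a Cp UMI in silk at 4 weeks, 19.8% in silk at 2 weeks, 33.5% in sponge at 4 weeks and 4.65% in sponge at 2 weeks.

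**Figure D4:**
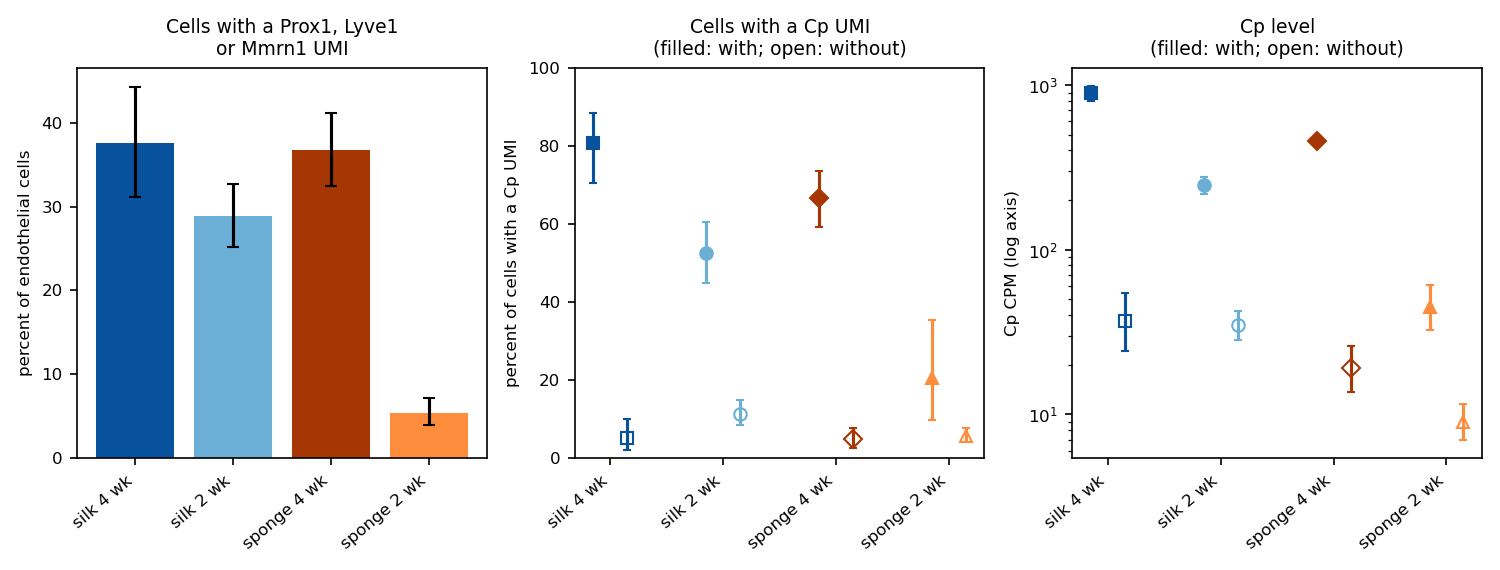
From left to right, by granuloma: the percent of endothelial cells with a UMI of Prox1, Lyve1 or Mmrn1, the percent of cells with a Cp UMI and the Cp level in CPM on a log axis, the last 2 in cells with (filled) and without (open) such a UMI, with 95% intervals for counting error. The level in cells with such a UMI is 892.3 and 245.0 CPM in silk at 4 and 2 weeks and 456.1 and 45.0 CPM in sponge at 4 and 2 weeks.

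In fibroblasts Cp was at 182.9 CPM in silk at 4 weeks, 75.4 CPM in silk at 2 weeks, 76.4 CPM in sponge at 4 weeks and 87.4 CPM in sponge at 2 weeks. Silk at 4 weeks alone stood apart: its log2 ratio was 1.26 (1.11 to 1.41) to sponge at 4 weeks and 1.28 (1.12 to 1.44) to silk at 2 weeks, comparisons in which 2.21% and 5.39% of all genes were called higher. The difference lay in the authors' subcluster F1, at 344.4 CPM in silk at 4 weeks, 87.7 CPM in silk at 2 weeks, 110.3 CPM in sponge at 4 weeks and 92.3 CPM in sponge at 2 weeks. In F2 the levels were 52.4, 76.9, 46.7 and 117.5 CPM in the same libraries, and silk at 4 weeks was not the highest. The share of F1 among fibroblasts, given above, was also higher in silk at 4 than at 2 weeks. With equal weight of F1 and F2 and the 10 CPM added, silk at 4 weeks kept a ratio of 1.24 to sponge at 4 weeks and 1.18 to silk at 2 weeks. Neither ratio reached the 2-fold limit with 50 CPM added (0.88 and 0.89) or after thinning to 1000 UMIs (0.87 and 0.97). Cells deposited as myocytes had Cp at 71.2 CPM in sponge at 4 weeks and 156.3 CPM in sponge at 2 weeks. In macrophages Cp was at 2.37 CPM in silk at 4 weeks, 0.867 CPM in silk at 2 weeks, 6.39 CPM in sponge at 4 weeks and 18.1 CPM in sponge at 2 weeks, against 1.35 CPM in the control. Of the macrophage UMIs of Cp, C5 held 24 of 37 in silk at 2 weeks, 100 of 133 in sponge at 4 weeks and 623 of 763 in sponge at 2 weeks.

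Trf encodes transferrin, the plasma carrier of iron, which the liver makes for the circulation (chr9:103204001-103230444, minus strand). Its level in macrophages was 180.1 CPM in silk at 4 weeks, 114.8 CPM in silk at 2 weeks, 134.7 CPM in sponge at 4 weeks and 150.5 CPM in sponge at 2 weeks, against 1126 CPM in the control. All 4 granulomas lay far below the control. The log2 ratio was −2.64 (−2.73 to −2.56), −3.30 (−3.34 to −3.25), −3.06 (−3.12 to −3.01) and −2.90 (−2.94 to −2.87) in these granulomas. Thinned to 1000 UMIs, Trf was found in 13.1% of macrophages in silk at 4 weeks, 9.84% in silk at 2 weeks, 10.1% in sponge at 4 weeks and 12.3% in sponge at 2 weeks, against 62.1% in the control.

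Trf was not uniform within either side. The control subclusters were at 1321 CPM in C1, 571.9 CPM in C10 and 506.3 CPM in C2. The highest granuloma subcluster was C5 of silk at 2 weeks, at 702.2 CPM, and C3 ranged from 200.1 CPM in sponge at 2 weeks to 363.1 CPM in silk at 2 weeks. C8 was lowest, at 44.5 CPM in silk at 2 weeks, 59.7 CPM in sponge at 4 weeks and 55.9 CPM in sponge at 2 weeks. Hence C5 of silk at 2 weeks overlapped the range of the control subclusters, and the remaining granuloma subclusters did not. No subcluster had 50 cells both in a granuloma and in the control, so granuloma and control were not compared within a subcluster.

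In NK and T cells Trf was at 47.8 CPM in silk at 4 weeks, 61.0 CPM in silk at 2 weeks, 49.3 CPM in sponge at 4 weeks and 32.0 CPM in sponge at 2 weeks, against 247.6 CPM in the control. It was called lower in all 4 comparisons, 1 of 3 genes that met the limits, where 2.74% of all genes were. Trf in these cells stood at 22.0% of the macrophage level in the control, close to the 20.3% at which the summed macrophage markers stood. The control B cells held 225.7 CPM, 20.0% of the macrophage level, with macrophage markers at 21.1%. In the granulomas Trf of NK and T cells stood further above the markers, at 26.6% of the macrophage level in silk at 4 weeks, 53.2% in silk at 2 weeks, 36.6% in sponge at 4 weeks and 21.3% in sponge at 2 weeks, where the markers stood at 6.29%, 9.56%, 6.50% and 8.47%. The part of free RNA in these levels was not tested.

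**Figure D5:**
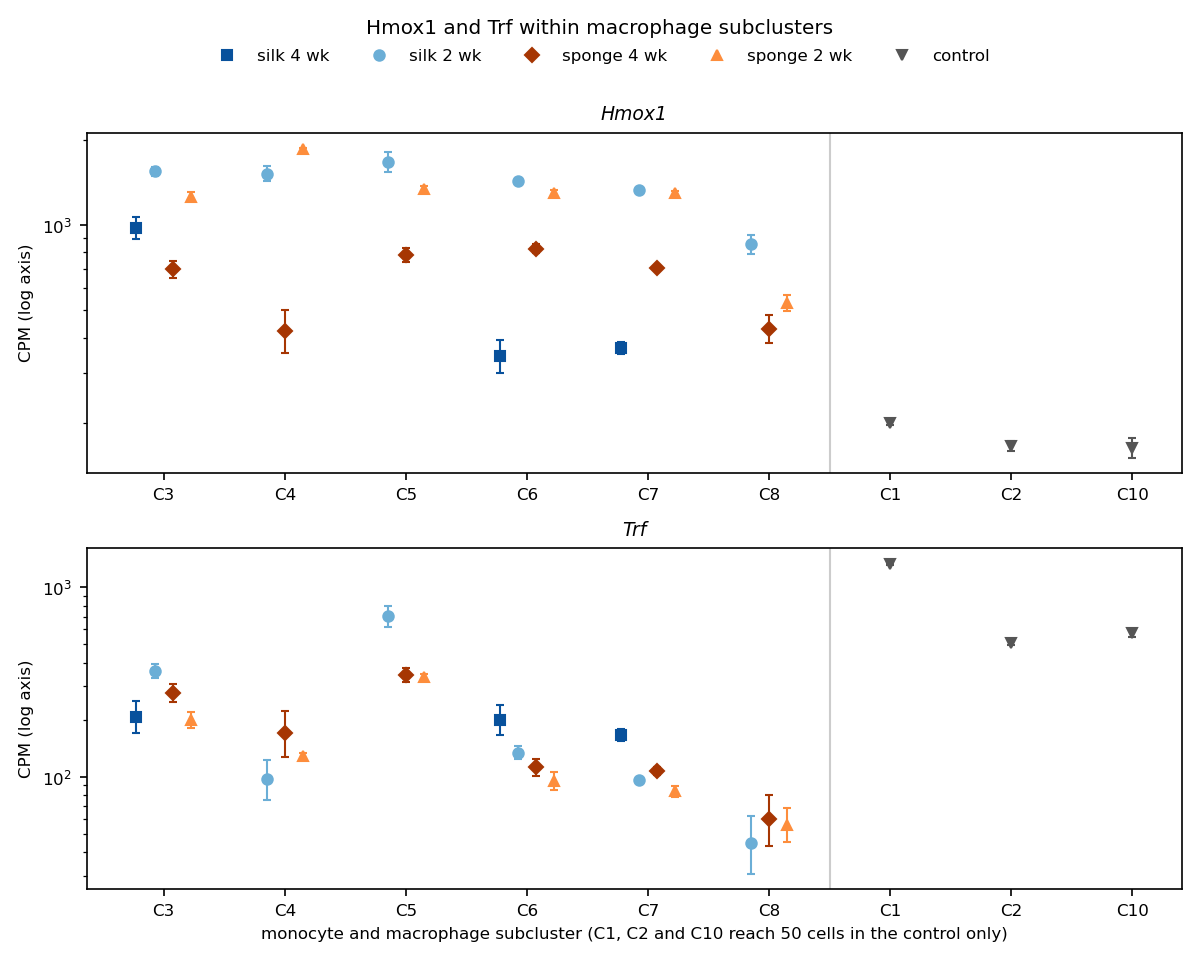
Levels of Hmox1 and Trf in the authors' monocyte and macrophage subclusters by library, in CPM on a log axis with 95% intervals for counting error; subclusters of granulomas stand left of the control subclusters C1, C2 and C10. Hmox1 is lower at 4 than at 2 weeks in each subcluster measured at both times, and Trf is highest in C1 at 1321 CPM.

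Tfrc encodes transferrin receptor 1, through which cells take up iron-loaded transferrin (chr16:32608920-32632794, plus strand). In macrophages it was at 24.5 CPM in silk at 4 weeks, 32.1 CPM in silk at 2 weeks, 42.0 CPM in sponge at 4 weeks and 50.9 CPM in sponge at 2 weeks, against 55.3 CPM in the control. All granulomas lay below the control, with silk below sponge at both times in the class as a whole. Within subclusters the interval for silk against sponge lay below 0 in C7 and C8 and above 0 in C3 of 6 at 2 weeks. At 4 weeks it lay below 0 in C7 alone of 3. The log2 ratio to the control was −1.17 (−1.42 to −0.95) for silk at 4 weeks, −0.78 (−0.87 to −0.70) for silk at 2 weeks, −0.40 (−0.51 to −0.29) for sponge at 4 weeks and −0.12 (−0.20 to −0.04) for sponge at 2 weeks. None was called once 10 CPM was added to both levels. C5 held 111.9 to 131.5 CPM in all 3 libraries measured, above C1 at 56.0, C2 at 64.9 and C10 at 15.2 CPM. C8 was at 66.8 CPM in silk at 2 weeks, 51.4 CPM in sponge at 4 weeks and 194.9 CPM in sponge at 2 weeks, the last with 72 of its 328 UMIs in 1 cell. NK and T cells held 83.1 CPM in silk at 4 weeks, 49.5 CPM in silk at 2 weeks, 52.3 CPM in sponge at 4 weeks and 49.6 CPM in sponge at 2 weeks, against 27.7 CPM in the control.

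Slc11a1 encodes NRAMP1, a metal pump of the phagosome membrane of macrophages and neutrophils (chr1:74375195-74386062, plus strand). Its macrophage level was 215.4 CPM in silk at 4 weeks, 286.5 CPM in silk at 2 weeks, 158.2 CPM in sponge at 4 weeks and 238.3 CPM in sponge at 2 weeks, against 194.3 CPM in the control. The granulomas lay on both sides of the control, at log2 ratios between −0.30 and 0.56, and silk lay above sponge at both times. In neutrophils it was at 445.6 CPM in silk at 4 weeks, 572.9 CPM in silk at 2 weeks, 416.0 CPM in sponge at 4 weeks and 276.7 CPM in sponge at 2 weeks. Silk against sponge at 2 weeks gave 1.05 (0.90 to 1.20), and Trf gave 1.07 (0.83 to 1.31) in the same comparison, at 235.5 CPM in silk and 112.1 CPM in sponge. Both were called higher, as were 3.38% of all genes there. Both calls lie close to the limit, at 1.02 for Slc11a1 and 1.01 for Trf once the 10 CPM is added, and did not hold with TMM scaling (0.79 and 0.79), median-of-ratios scaling (0.84 and 0.83), 50 CPM added (0.93 and 0.82) or equal weight of the subclusters (0.96 and 0.36). Slc11a1 also missed the limit after thinning (0.98).

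Fth1 and Ftl1 encode the heavy chain of ferritin, which oxidises iron, and the light chain, which helps it settle in the core of the shell (chr19:9980598-9985098, plus strand, and chr7:45457944-45459884, minus strand). Fth1 in macrophages was at 20488 CPM in silk at 4 weeks, 25182 CPM in silk at 2 weeks, 22646 CPM in sponge at 4 weeks and 23689 CPM in sponge at 2 weeks, against 20158 CPM in the control. Ftl1 was at 9867, 9425, 9603 and 10017 CPM in these granulomas, against 12927 CPM in the control. Fth1 lay above the control in each granuloma, in silk at 4 weeks by a log2 ratio of 0.02 that turned to −0.03 with TMM scaling and −0.02 with the classes as deposited, and Ftl1 lay below it by 0.37 to 0.46 on the log2 scale. None was called. A near-identical retrogene copy, Ftl1-ps1 on chromosome 13, took up 0.635% to 1.65% of the light chain UMIs, so reads of Ftl1 may be split between them.

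The balance of the 2 chains differed between granulomas and control. Per light chain UMI, macrophages held 2.08 heavy chain UMIs in silk at 4 weeks, 2.67 in silk at 2 weeks, 2.36 in sponge at 4 weeks and 2.37 in sponge at 2 weeks, against 1.56 in the control. These are ratios of counted 3′ ends and not of molecules per length, so they serve to compare libraries. All 4 granulomas stood above the control, and with the retrogene counted as light chain the ratios were 2.06, 2.63, 2.33 and 2.34, against 1.54. The chains together took 3.04%, 3.46%, 3.23% and 3.37% of macrophage UMIs in these granulomas and 3.31% in the control. The ratio was 2.75, 2.73, 3.55 and 2.60 in NK and T cells of the same granulomas, against 1.64 in those of the control. In these control cells Fth1 stood at 17.8% and Ftl1 at 16.95% of the macrophage level, below the 20.3% of the macrophage markers, and the part of free RNA in that ratio was not tested. In C4 the ratio was 3.25 in silk at 2 weeks, 2.27 in sponge at 4 weeks and 3.08 in sponge at 2 weeks, and in C5 it was 2.31, 1.88 and 1.51. The control subclusters C1, C10 and C2 had ratios of 1.54, 1.67 and 1.60. Both chains were low in the stroma: Fth1 stood at 3331 to 3926 CPM in endothelial cells and 3986 to 4395 CPM in fibroblasts of the 4 granulomas, and Ftl1 at 1052 to 1647 CPM and 1266 to 1647 CPM.

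In neutrophils Fth1 was at 20221 CPM in silk at 4 weeks, 27133 CPM in silk at 2 weeks, 24416 CPM in sponge at 4 weeks and 41920 CPM in sponge at 2 weeks. N2 was again the highest, with Fth1 at 46593 CPM in silk at 2 weeks, 41867 CPM in sponge at 4 weeks and 56584 CPM in sponge at 2 weeks, and Ftl1 at 34123, 25814 and 25083 CPM in the same libraries. Its heavy to light ratio was 1.37, 1.62 and 2.26 there. In N1 the ratio was 2.63 in silk at 4 weeks, 4.30 in silk at 2 weeks, 2.10 in sponge at 4 weeks and 4.36 in sponge at 2 weeks.

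The wider pathway was read from lists of haem breakdown, haem transport, haem synthesis, iron uptake, storage, export and iron sensing, the iron and iron-sulphur cluster genes of mitochondria, and transcription factors that respond to haem or iron. Of 79 listed genes, 76 were in the table, 68 of them other than the 8. In macrophages 18 of the 68 met the limits against the control in all 4 granulomas, of which 1 was higher and 1 lower throughout, close to the shares of 6.30% and 2.79% over all genes. The higher one was Alas1, the first enzyme of haem synthesis, at 200.9 CPM in silk at 4 weeks, 240.1 CPM in silk at 2 weeks, 175.6 CPM in sponge at 4 weeks and 104.3 CPM in sponge at 2 weeks, against 31.8 CPM in the control. The lower one was Epas1, the hypoxia factor HIF-2α, whose own 5′ UTR is known to carry an iron-responsive hairpin, at 3.15, 3.19, 2.88 and 3.18 CPM in these granulomas, against 62.3 CPM in the control. Their log2 ratios ran between 1.71 and 2.92 for Alas1 and between −4.42 and −4.27 for Epas1.

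Between times, 21 of the 68 genes met the limits in macrophages of both materials and 1 was lower at 4 weeks in both, where 0.506% of all genes were. It was Fbxl5, which marks iron regulatory protein 2 for decay when iron is plentiful, at 42.3 CPM in silk at 4 weeks and 123.7 CPM in silk at 2 weeks, and at 53.8 CPM in sponge at 4 weeks and 133.6 CPM in sponge at 2 weeks. Between materials 20 genes met the limits and none was called the same way at both times, where 0.0684% of all genes were higher and 0.308% lower. None of the 13 genes for iron export and its control, Slc40a1 and Cp among them, met the limits in macrophages in any comparison. Slc48a1, which brings haem out of the phagolysosome, was at 195.4 CPM in silk at 4 weeks, 161.8 CPM in silk at 2 weeks, 203.9 CPM in sponge at 4 weeks and 131.1 CPM in sponge at 2 weeks, against 63.5 CPM in the control. It was named after its values were seen, and was not called in sponge at 2 weeks. The list of haem transport did not move as 1. In the same order Hp was at 103.6, 112.8, 34.5 and 111.1 CPM, against 5.57 CPM in the control. Cd163 was at 3.31, 0.586, 2.21 and 6.45 CPM, against 9.39 CPM, all under the limit of 50 CPM. In neutrophils 6 genes met the limits over time, and 1 was lower at 4 weeks in both materials, where 8.24% of all genes were. It was Lrp1, a receptor for haem bound to haemopexin, at 12.0 CPM from 1 UMI in silk at 4 weeks and 150.5 CPM in silk at 2 weeks, and at 18.7 CPM from 8 UMIs in sponge at 4 weeks and 102.5 CPM in sponge at 2 weeks. N3, the neutrophil subcluster rich in macrophage markers, made up 1.45%, 7.25%, 3.33% and 10.15% of neutrophils in the same order. Its part in the Lrp1 levels was not tested. In NK and T cells 5 genes met the limits against the control and 1 was higher in all 4 granulomas, where 4.45% of all genes were. It was Hif1a, the hypoxia factor HIF-1α, at 307.1, 529.8, 460.7 and 396.8 CPM in silk at 4 weeks, silk at 2 weeks, sponge at 4 weeks and sponge at 2 weeks, against 130.5 CPM in the control.

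Likeness of pattern was measured by Pearson's r of log2(CPM + 10) over 24 profiles, each a myeloid subcluster in a library, among 4745 genes; profiles of a library share its depth and free RNA, so r is given as a description. The 3 genes most like Hmox1 were Ifrd1 (0.861), Mylip (0.839) and Tcf7l2 (0.832). For Trf they were Vsir (0.902), Lyl1 (0.895) and Nr3c1 (0.890), and for Cp they were Cela1 (0.924), Scamp2 (0.921) and Pdgfc (0.914). Tfrc was most like Rab3il1 (0.863), Ap2s1 (0.855) and Plod1 (0.852), and Slc11a1 most like Lrpap1 (0.769), Soat1 (0.755) and Slpi (0.748). Ctsz was among the first 3 for both ferritin chains, at 0.906 with Fth1 and 0.931 with Ftl1. Fth1 was also like Gde1 (0.916) and Cstb (0.900), and Ftl1 like Ahnak2 (0.905) and Lgals3 (0.899). Slc40a1 never reached 50 CPM in these profiles, and its first genes were Slc26a11 (0.853), Scpep1 (0.843) and Phyhd1 (0.829). Among the 8 themselves r was 0.886 between the ferritin chains, 0.735 between Slc40a1 and Cp, 0.692 between Cp and Tfrc, 0.090 between Hmox1 and Fth1 and −0.355 between Hmox1 and Trf.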

How the data were processed

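The authors deposited raw UMI counts of 21617 genes in 41191 cells of 5 libraries (10x Chromium 3′ v3, per the labels' protocols), with a class, a subcluster and the percent of mitochondrial UMIs for each cell. The percent column, deposited by the authors, was not tested here. The submitters' processing notes name Cell Ranger 3.0.0, Seurat 3.0 and mm10 with no role; filters on cells and doublet removal are not named there, and no doublet caller was run. Each library is 1 sample, and cells were not treated as replicates. Cells of subclusters C9, BP, KC and Low quality were left out. Counts were summed per library and class or subcluster with at least 50 cells. Ratio intervals are conditional binomial, level intervals exact Poisson and share intervals exact Clopper-Pearson, all at 95%. Cells were thinned without replacement to 1000 UMIs, and shallower cells were left out of thinned shares. A call needed 2-fold with 10 CPM added, 100 UMIs and 50 CPM. All 8 genes are named. Pathway genes are named where called the same way in every contrast of a comparison, and Slc48a1, Hp and Cd163 were named after their values were seen. Like genes are the 3 of highest r, without predicted, ribosomal, mitochondrial and sex-linked genes. The members, lists and tests were chosen with earlier results of these data known. Python 3.11.15 with numpy 2.4.6, scipy 1.17.1 and pandas 2.3.3 was used, and edgeR 4.0.16 for TMM factors. The calling step was tested on simulated data, drawn from the control macrophage levels with counting error only. That simulation holds no spread between libraries, so it cannot show how calls between single libraries would hold up.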

Additional observations from a re-analysis of the deposited data

Results flagged for a closer look

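Each value here is a log2 ratio whose direction differs between the materials or the times, with both intervals clear of 0. The difference between the 2 ratios was not tested, and 1 library stands behind each group. In macrophages Cp at 4 against 2 weeks was 1.48 in silk and −1.50 in sponge, from 15 UMIs in silk at 4 weeks and 37 in silk at 2 weeks. Within subclusters the interval of Cp lay above 0 in 0 of 3 in silk, and below 0 in C5 and C8 of 6 in sponge. C5, the subcluster with the highest Cp levels, had too few cells in silk at 4 weeks. It made up 3.35% of macrophages in silk at 4 weeks and 1.42% at 2 weeks, and 9.51% and 19.1% in sponge. The part of this makeup in the Cp ratios was not tested. Trf in macrophages at 4 against 2 weeks was 0.65 in silk and −0.16 in sponge, and silk against sponge was 0.42 at 4 weeks and −0.39 at 2 weeks. The 2 negative values did not hold within most subclusters. In sponge over time the interval of Trf lay above 0 in C3, C6 and C7 of 6 subclusters and below 0 in 0 of them. For silk against sponge at 2 weeks it lay above 0 in C3, C5, C6 and C7 and below 0 in C4. C4 made up 1.89% of macrophages in silk and 35.7% in sponge at 2 weeks, and the part of makeup was not tested.

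In fibroblasts Cp at 4 against 2 weeks was 1.28 in silk and −0.20 in sponge, and silk against sponge was 1.26 at 4 weeks and −0.21 at 2 weeks. Within subclusters the interval of Cp in sponge over time lay above 0 in F1 and F3 and below 0 in F2 and F4. For silk against sponge at 2 weeks it lay above 0 in F3 and below 0 in F2. Tfrc in fibroblasts was −1.41 for silk against sponge at 4 weeks and 0.46 at 2 weeks, with 11 UMIs in silk at 4 weeks. Within subclusters at 2 weeks, the interval of Tfrc lay above 0 in 0 of 4 and below 0 in F4. F1 made up 13.2% of fibroblasts in silk and 63.8% in sponge at 2 weeks, and the part of makeup was not tested. Ftl1 in fibroblasts at 4 against 2 weeks was 0.21 in silk and −0.38 in sponge, and silk against sponge was 0.22 at 4 weeks and −0.37 at 2 weeks. In endothelial cells Slc11a1 was −1.38 for silk against sponge at 4 weeks and 0.61 at 2 weeks, with 4 UMIs in silk at 4 weeks. It stood at 1.68% of the macrophage level in silk at 4 weeks, 8.275% in silk at 2 weeks, 6.59% in sponge at 4 weeks and 6.52% in sponge at 2 weeks. The summed macrophage markers stood close by, at 0.470%, 7.81%, 5.57% and 6.26% in the same order. The part of free RNA from macrophages was not tested.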

How the results depend on the processing

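No paired analysis was possible because each group is 1 library and the labels give no replicate numbers. The count of members higher in all 4 granulomas against the control, 1 (Hmox1), was 0 with TMM scaling, with an offset of 50 CPM, with the authors' classes as deposited and with the mean of each cell's CPM: the log2 ratio of silk at 4 weeks to the control, with the offset, was then 0.99, 0.91, 0.98 and 0.99, where it was 1.04 as reported. The count of members lower at 4 than at 2 weeks in both materials, 1 (Hmox1), was 0 with sums without mitochondrial genes, the mean of each cell's CPM, equal weight of subclusters, cells thinned to 1000 UMIs and without the 5% of cells with most UMIs: the sponge ratio was then −0.98, −0.79, −0.96, −0.92 and −0.97, where it was −1.05 as reported. The cause was not tested. Trf in macrophages was lower in all 4 granulomas under each of the settings run. The settings were run for macrophages, neutrophils, fibroblasts and endothelial cells, and not for NK and T cells. Of 21 called ratios over these 4 classes, between 15 (offset of 50 CPM) and 21 stayed called under 12 settings. With equal weight of subclusters, which could not be made against the control, 3 of 8 did. Ratios that were newly past 2-fold numbered most after thinning to 1000 UMIs, at 5. No called ratio changed sign. Settings for shared barcodes, the Ftl1 retrogene, erythroid UMIs, the endothelial split and the stress genes were chosen after seeing the data. Depth limits neutrophils of silk at 4 weeks (69 cells) most.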
